A study of Arabidopsis thaliana with 7 samples.

Results

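Plastids carry their own bacterial-type ribosomes, and the proteins of the small ribosomal subunit are made from genes of both the nucleus and the plastid genome. The rps genes of the plastid genome encode the plastid's own share of that subunit, which holds the decoding site where messenger RNA and transfer RNA meet. In developing seeds of Arabidopsis the embryo passes through a green stage, and plastid translation is needed for embryo development. Plastid transcripts mostly lack the stable poly(A) tails of nuclear messenger RNAs, and added A-rich tails in plastids are known to mark RNA for decay.

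The genes described are the plastid-encoded rps genes that a probe set of the array names alone. The rule found 8 genes, namely rps2, rps3, rps4, rps14, rps15, rps16, rps18 and rps19, of 13356 genes named by single-gene probe sets in all. Each of the 8 has 1 probe set. The family was selected on its higher signal in myb5, so the genotype differences below are the values that chose it. They are given as a description and support nothing by themselves, and counts of calls are printed only beside the share over the whole table. The probe sets for rps7 and rps12 each name both copies of a gene that lies in the repeated part of the plastid genome, so they fall outside the rule.

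Seeds of Arabidopsis thaliana wild-type plants (Col) were compared with seeds of myb5-1 mutant plants, with 4 wild-type and 3 myb5 biological replicates and 1 Affymetrix array for each. MYB5 is a transcription factor known for its work in the seed coat, and the labels do not say what the myb5-1 lesion is. Both genotypes were grown together on soil in constant light, and whole seeds from globular to walking-stick embryo stages were collected, so embryo, endosperm and seed coat are measured together. RNA was amplified over repeated rounds that began from an oligo(dT) primer, which gives no direct copy of RNAs that lack a poly(A) tail. MYB5 itself was not analysed here.

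Values are deposited linear intensities, given for each array, and differences are myb5 minus wild type in log2(intensity + 16) after quantile normalization, with the standard error (SE) of the limma fit. Intensities of different probe sets cannot be set against each other, so members are compared only by how they vary across arrays. Across the whole table, wild-type replicates 1 and 2 and myb5 replicate 1, called the smaller set of arrays here, stood apart from the other 4 arrays along the first principal component, which held 56.8% of the variance. The late maturation markers measured, 2 of 6, followed that division: the intensity of OLEO3, an oleosin of oil bodies, was 4435 to 5364 in the smaller set and 610 to 1469 in the larger. Median intensities of the wild-type arrays were 49.0 to 50.8, and those of the myb5 arrays 52.2 to 54.4. The arrays carry 6 pairs of control probe sets for opposite transcript ends, and 1 GAPDH pair also separated the genotypes: its 5′/3′ ratio was 0.495 to 0.516 in myb5, against 0.552 to 0.632 in wild type. The other GAPDH pair overlapped between the genotypes but separated the array sets, at 0.156 to 0.208 in the smaller and 0.0809 to 0.0934 in the larger. The remaining pairs separated neither. The part of the array medians and of these end ratios in the results below was not tested. Of the seed coat, endosperm, embryo, fruit wall and green tissue marker lists, 4 of 9, 2 of 6, 1 of 6, 1 of 4 and 1 of 5 were measured. The seed coat markers were bright, with a summed intensity of 5189 to 12653 in wild-type arrays and 5931 to 11321 in myb5 arrays. The embryo and endosperm markers measured were dim, with summed intensities of at most 7.54 and 21.1 in any array. The fruit wall marker ALC lay at 49.3 to 117 in wild-type arrays and 70.9 to 120 in myb5 arrays, and the green tissue marker RCA at 222 to 573 and 145 to 473. The seed coat markers BAN and DFR, and ALC, also divided fully by array set, lower in the smaller set, and RCA was higher there. DFR lay at 1383 to 2143 in the smaller set and 3906 to 5381 in the larger, and RCA at 473 to 573 and 145 to 249. The other markers of these lists overlapped between the sets.

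Plastid rps signal was higher in myb5 seeds for each of the 8 members. The ratio of mean intensities, myb5 over wild type, ran from 1.19 for rps4 to 1.99 for rps16, and the median log2 difference was 0.46, against -0.00035 over all 22746 probe sets tested. For 4 members, rps2, rps3, rps16 and rps19, all 3 myb5 arrays lay above all 4 wild-type arrays, where 2.18% of all probe sets tested did. For the other 4, rps4, rps14, rps15 and rps18, the genotypes overlapped. No member had all myb5 arrays below wild type, where 2.17% of all probe sets did. The log2 difference was below the SD of at least 1 genotype for rps14 and rps18, and above both SDs for the others. The share of all probe sets above both SDs was not counted, so nothing is read from that. By limma with Benjamini-Hochberg adjustment over all probe sets, 0 of the 8 passed 0.05 (background 0.0044%), and 4 had an unadjusted p under 0.05 (background 3.46%). Nothing is read from these shares, since the same contrast chose the family. In whole seeds, more plastids or plastid-rich cells and more RNA in each cannot be told apart. Whether the signal followed RNA amount was not tested either. Amplification began from an oligo(dT) primer, and plastid transcripts mostly lack stable poly(A) tails.

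**Figure D1:**
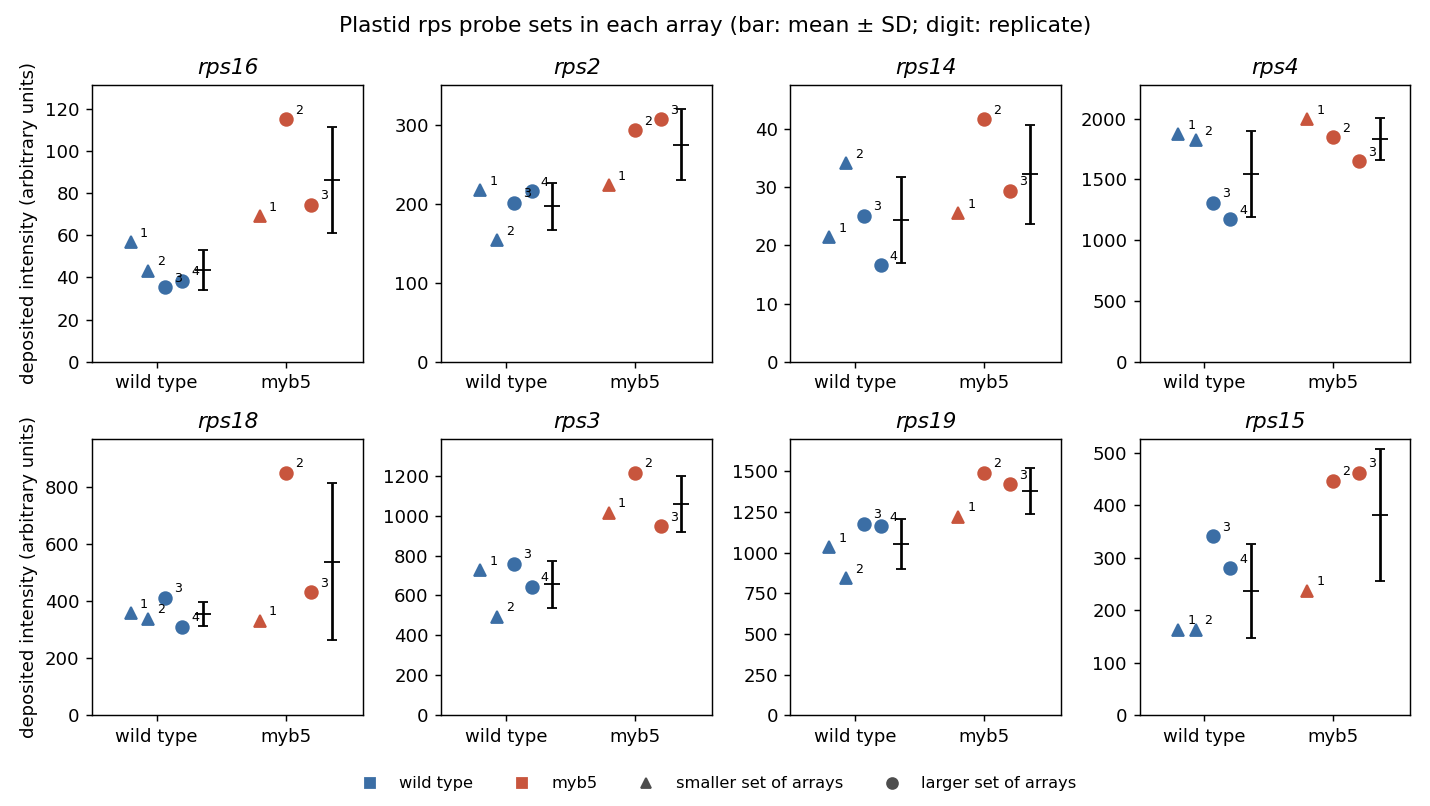
Deposited intensity (vertical axes, arbitrary units, from 0) of the 8 plastid rps probe sets in each array, with wild type in blue and myb5 in red, triangles for the smaller set of arrays and circles for the larger, and the mean ± SD of each genotype (n = 4 and n = 3) as a black bar. The genotypes do not overlap for rps2, rps3, rps16 and rps19, and a single myb5 array, replicate 2, stands high for rps18.

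Among proteins of the head of the subunit, rps3 had the clearest separation. In Escherichia coli its protein sits where messenger RNA enters the ribosome. The rps3 intensities were 725, 494, 759 and 643 in wild-type replicates 1 to 4. They were 1015, 1215 and 946 in myb5 replicates 1 to 3. Every myb5 array was above every wild-type array, and the distance between the lowest myb5 and the highest wild-type array was 0.33 on the log2 scale, the widest among the members. The wild-type mean was 655 ± 118 (SD, n = 4) and the myb5 mean 1059 ± 140 (SD, n = 3), and the log2 difference was 0.71 (SE 0.18). That difference was 0.64 within the larger set of arrays and 0.75 within the smaller.

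The rps19 protein also belongs to the head, where it makes contact with the large subunit in Escherichia coli. Its intensities were 1032, 844, 1176 and 1160 in wild-type replicates 1 to 4. In myb5 replicates 1 to 3 they were 1220, 1491 and 1419. The genotypes did not overlap, but the gap was only 0.034 on the log2 scale, between myb5 replicate 1 and wild-type replicate 4. Means were 1053 ± 154 and 1377 ± 140 (SD, n = 4 and n = 3), a log2 difference of 0.43 (SE 0.17).

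The third head protein measured, rps14, had the smallest difference on the log2 scale used, though not the smallest ratio of means. The intensities of rps14 were 21.4, 34.1, 25.1 and 16.6 in wild-type replicates 1 to 4 and 25.5, 41.7 and 29.4 in myb5 replicates 1 to 3. The genotypes overlapped, with wild-type replicate 2 above myb5 replicates 1 and 3. These values lie near the added constant of 16, so the log2 difference of 0.18 (SE 0.18) understates the ratio of means of 1.33. Without myb5 replicate 2 it was 0.053, without wild-type replicate 4 it was 0.092, without wild-type replicate 2 it was 0.29 and without myb5 replicate 1 it was 0.28.

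The proteins of rps4 and rps15 bind ribosomal RNA directly and early in the assembly of the subunit in Escherichia coli. The intensities of rps4 were 1873, 1825, 1309 and 1172 in wild-type replicates 1 to 4. They were 1998, 1850 and 1652 in myb5 replicates 1 to 3. Wild-type replicates 1 and 2 lay among the myb5 arrays, while replicates 3 and 4 lay below them all. Means were 1545 ± 357 and 1833 ± 174 (SD, n = 4 and n = 3), with a log2 difference of 0.32 (SE 0.18), or 0.53 within the larger set and 0.16 within the smaller. Without wild-type replicate 4 the log2 difference of rps4 was 0.21.

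For rps15 the arrays divided the opposite way. Its intensities were 163 in both wild-type replicates 1 and 2, and 341 and 280 in replicates 3 and 4. Its myb5 intensities were 237 in replicate 1, and 447 and 462 in replicates 2 and 3. Within each set of arrays the myb5 values were the higher, yet myb5 replicate 1 lay below wild-type replicates 3 and 4. The log2 difference between genotypes was 0.66 (SE 0.32). Between the array sets, smaller minus larger, rps15 differed by -0.80 within wild type and -0.90 within myb5, so it varied more between the sets than between the genotypes. For rps4 the same difference between sets was 0.51 within wild type and 0.15 within myb5.

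The other 3 members are rps2, rps16 and rps18. The rps2 protein lies on the solvent side of the subunit in Escherichia coli, and the rps18 protein belongs to the platform beside the messenger RNA exit. The intensities of rps2 were 217, 154, 202 and 216 in wild-type replicates 1 to 4. They were 224, 294 and 308 in myb5 replicates 1 to 3. The genotypes did not overlap, with a gap of 0.036 on the log2 scale, since myb5 replicate 1 lay just above wild-type replicate 1. Means were 197 ± 29.7 and 275 ± 45.0 (SD, n = 4 and n = 3), a log2 difference of 0.44 (SE 0.15). With array medians set equal in place of quantile normalization, rps2 overlapped between the genotypes.

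The plastid gene rps16 is interrupted by an intron, and splicing of its transcript was not examined here. Its intensities were 56.7, 43.2, 35.4 and 38.3 in wild-type replicates 1 to 4. In myb5 replicates 1 to 3 they were 69.1, 115 and 74.5, all above wild type. The log2 difference was 0.71 (SE 0.19), with 0.97 in the larger set and 0.34 in the smaller. It depends on the added constant at this brightness, and was 0.88 with a constant of 1 and 0.44 with 64.

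The value of rps18 rested on 1 array. Its intensities were 358, 338, 412 and 311 in wild-type replicates 1 to 4, and 332, 851 and 432 in myb5 replicates 1 to 3. Replicate 1 of myb5 lay inside the wild-type range, and replicate 2 lay far above all others. The log2 difference was 0.49 (SE 0.30), 0.099 without myb5 replicate 2 and 0.78 without myb5 replicate 1.

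**Figure D2:**
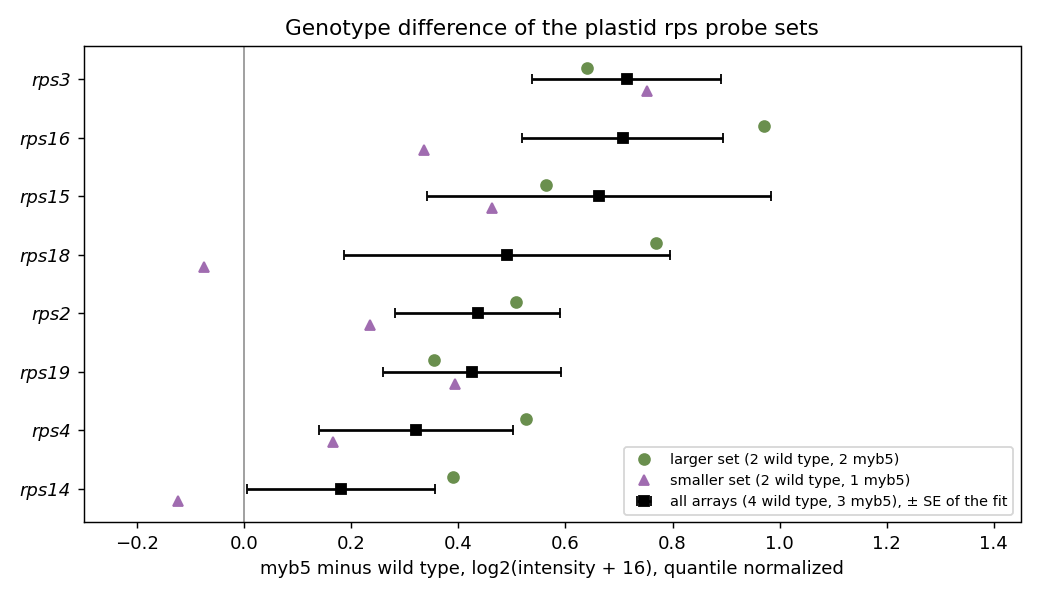
Log2 difference (horizontal axis, myb5 minus wild type) of each plastid rps probe set over all arrays with the SE of the fit (black), within the larger set of arrays (green circles) and within the smaller set (purple triangles). All 8 lie above 0 over all arrays and in the larger set, and rps14 and rps18 lie below 0 in the smaller set, at -0.12 and -0.075.

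The members shared a direction but not a common profile. Within the larger set, 8 of 8 differences were above 0 and all myb5 arrays lay above wild type for 8 of 8, where 15.5% of all probe sets did so with these 4 arrays. Within the smaller set, which has a single myb5 array, that array lay above both wild-type arrays for 6 of 8 members, where 31.2% of all probe sets did. Replicate 2 of myb5 was the highest of the 7 arrays for 5 of the 8 members, and replicate 1 was the lowest myb5 array for 6. Averaged over the 8 members, the log2 level of the wild-type arrays was 8.18 ± 0.094 (SD, n = 4) and that of the myb5 arrays 8.67 ± 0.26 (SD, n = 3). As a description across the 7 arrays, 27 of 28 pairs of members had a Pearson correlation above 0, with a median of 0.65, from 0.93 for rps2 with rps19 to -0.13 for rps4 with rps15. After each genotype's mean was taken out, 20 of 28 pairs were above 0, with a median of 0.38, and rps4 with rps15 was at -0.80. All pairs share the same arrays and their scaling.

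The excluded probe sets for genes with more than 1 plastid copy varied as follows. The rps7 protein organizes the head of the subunit in Escherichia coli, and the probe set for rps7 had intensities of 3105, 3132, 2113 and 2355 in wild-type replicates 1 to 4 and 3777, 3906 and 2953 in myb5 replicates 1 to 3. Only myb5 replicate 3 lay inside the wild-type range, and the log2 difference was 0.46 (SE 0.17). The rps12 protein takes part in decoding accuracy, and its messenger RNA is joined from separate transcripts by trans-splicing. The brighter of the rps12 probe sets lay at 313 to 1179 in wild-type seeds, against 584 to 1178 in myb5, with a log2 difference of 0.64 (SE 0.47). The dimmer one lay at 72.9 to 169 and 105 to 157, with a log2 difference of 0.30 (SE 0.27). Both rps12 ranges overlapped between the genotypes.

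Of the 8 members, rps3 and rps19 lie among other ribosomal protein genes in a stretch of the plastid genome, from rps19 to rpoA, known for joint transcription. In that stretch 7 genes have a probe set naming them alone, including these members. All 7 log2 differences were above 0, from 0.43 for rps19 to 0.95 for rpl22, with a median of 0.70. In 6 of the 7, rpl36 excepted, all myb5 arrays lay above all wild-type arrays, where 2.18% of all probe sets tested did. The gene rpl22, for a large-subunit protein, lies between rps3 and rps19, and had intensities of 433, 279, 495 and 419 in wild-type replicates 1 to 4 and 660, 1040 and 674 in myb5 replicates 1 to 3. Its correlation with rps3 over the 7 arrays was 0.99. The gene on the other side of rps3, rpl16, had a mean of 911 ± 278 in wild type and 1378 ± 107 in myb5 (SD, n = 4 and n = 3) and a log2 difference of 0.67. At the far end, rpoA, for a subunit of the plastid-encoded RNA polymerase, had a log2 difference of 0.83. This stretch was described with its values in view, and its genes include the family chosen for the difference.

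**Figure D3:**
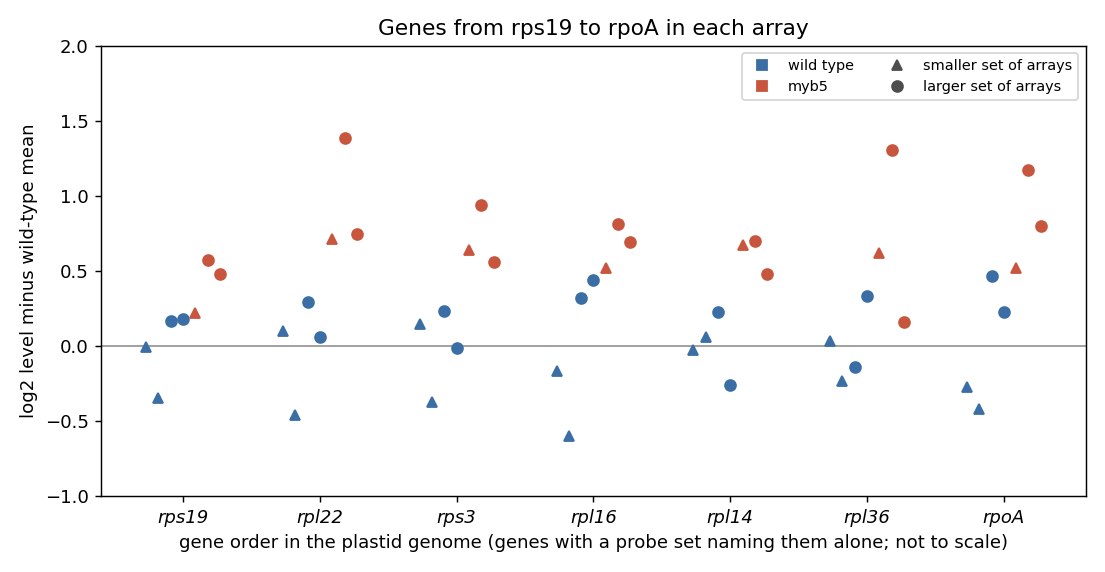
Log2 level in each array minus the wild-type mean (vertical axis) for the 7 genes from rps19 to rpoA that a probe set names alone, in plastid gene order, with wild type in blue, myb5 in red, triangles for the smaller set of arrays and circles for the larger. The myb5 arrays lie above the wild-type arrays in 6 of the 7 genes, and myb5 replicate 3 overlaps wild type for rpl36.

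Genes next to the other members had log2 differences below that of their member in some places and above it in others. The members were chosen for their difference and the neighbours were not. Beside rps2 lie atpI, for a subunit of the ATP synthase, and rpoC2, for an RNA polymerase subunit, with log2 differences of -0.20 (SE 0.25) and 0.24 (SE 0.29). Beside rps14 lie psbZ and psaB, for photosystem proteins, at 0.22 and 0.033. Beside rps16 lie matK, for a splicing factor, and psbK, for a photosystem protein, at 0.14 and -0.0098. Beside rps4 lie ycf3, for a photosystem assembly factor, and ndhJ, for a subunit of the NDH complex, at 0.49 (SE 0.31) and 0.40 (SE 0.15). Beside rps18 lie the large-subunit genes rpl33 and rpl20, at 0.17 and 0.71, and the measured neighbour of rps15 is ndhH, at 0.20. Correlations of these neighbours with their member over the arrays ran from -0.54 for atpI with rps2 to 0.93 for ycf3 with rps4. The difference between a member and its neighbour was not tested. For these 6 members no named neighbour had all myb5 arrays above wild type, where 2.18% of all probe sets tested did. With so few neighbours, nothing is read from that.

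The 8 rps genes, with a median log2 difference of 0.46 and 4 without overlap, can be set beside the other plastid-encoded groups. Of 7 rpl genes, for proteins of the large subunit, 7 were above 0 and 4 had no overlap (2.18% over all probe sets tested, here and for the groups below), with a median of 0.67 and a range from 0.17 for rpl33 to 0.95 for rpl22. Of the 4 rpo genes of the plastid RNA polymerase, 3 were above 0 and 1, rpoA, had no overlap, with a median of 0.29, and rpoB was at -0.21. Of the 10 ndh genes, 8 were above 0 and 1, ndhA, had no overlap, with a median of 0.24, from -0.24 for ndhD to 0.59 for ndhI. Of the 33 genes for photosystems, the cytochrome complex, ATP synthase and the large subunit of Rubisco, 19 were above 0 and 0 had no overlap, with a median of 0.055, from -0.76 for psbE to 0.52 for psaI. Over the 61 plastid-encoded genes other than rps, 44 were above 0 and 8 had no overlap, with a median of 0.17. In all these groups 0 genes passed the limma threshold (adjusted p, Benjamini-Hochberg), and 5 rpl, 1 rpo, 3 ndh and 1 photosynthesis gene had an unadjusted p under 0.05, where 3.46% of all probe sets did. The differences between these groups were not tested.

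The rps and photosynthesis groups differed in how they varied over the arrays. Relative to the wild-type mean, the mean log2 level of the rps genes was 0.051, -0.11, 0.10 and -0.046 in wild-type replicates 1 to 4 and 0.24, 0.77 and 0.47 in myb5 replicates 1 to 3. That of the photosynthesis genes was 0.33, 0.32, -0.20 and -0.44 in wild type and 0.33, -0.079 and -0.19 in myb5. The photosynthesis genes were thus high in the smaller set of arrays in both genotypes. Within the larger set they too were higher in both myb5 arrays than in both wild-type arrays. In the smaller set, myb5 replicate 1 was level with wild-type replicate 1. The rps genes were high in myb5, but that contrast chose them, and the next measure carries the same choice. The difference between the groups was not tested. The rps level minus the photosynthesis level, relative to the wild-type mean, was -0.28 and -0.42 in wild-type replicates 1 and 2, 0.31 and 0.39 in replicates 3 and 4, and -0.087, 0.85 and 0.65 in myb5 replicates 1 to 3. Within each set of arrays the myb5 arrays were the higher in this measure, but over all arrays the genotypes overlapped.

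**Figure D4:**
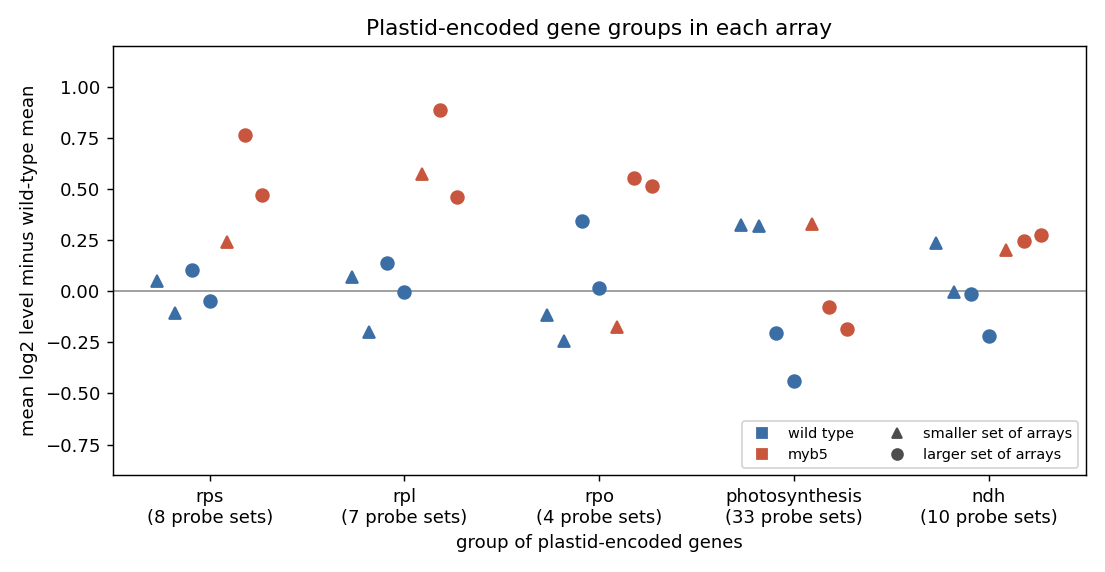
Mean log2 level of 5 groups of plastid-encoded genes in each array, minus the wild-type mean (vertical axis), with wild type in blue, myb5 in red, triangles for the smaller set of arrays and circles for the larger. All 3 myb5 arrays lie above wild type for the rps and rpl groups, while the photosynthesis group is higher in all 3 arrays of the smaller set than in the other 4.

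Nuclear genes that supply or serve the plastid ribosome had few probe sets naming them alone. Of 15 nuclear genes for proteins of the plastid small subunit, 3 were measured, and 0 were above 0 or without overlap. AT3G13120, for the S10 protein, had a mean intensity of 547 ± 152 in wild type, against 511 ± 102 in myb5 (SD, n = 4 and n = 3) and a log2 difference of -0.043. AT1G64510, for the S6 protein, and AT5G24490, for a plastid-specific ribosomal protein, had log2 differences of -0.10 and -0.23. Of 11 plastid ribosome assembly genes, 4 were measured with 5 probe sets, of which 1 was above 0, with a median of -0.037. RH39, an RNA helicase that acts on plastid ribosomal RNA, had 0.020, and AT5G66470, for a GTPase of the ERA family, had -0.31. Of 20 plastid transcription genes 1 was measured, the phage-type RNA polymerase gene AT5G15700, at -0.18 (SE 0.35). Its intensities of 3.86 to 31.7 lie near the added constant of 16. Of 16 plastid RNA processing genes 4 were measured and 0 were above 0, with a median of -0.076. Among these, OTP84, an RNA editing factor, had -0.0050, and AT2G18940, for the RNA-binding protein PPR10, had -0.27. None of these lists had a probe set without overlap in the direction of the rps genes (2.18% of all probe sets tested). None had one past the limma threshold (0.0044%) or with an unadjusted limma p under 0.05 (3.46%). With so few probe sets, nothing is read from these counts. No mitochondrion-encoded ribosomal protein gene was named alone by a probe set, so 0 were compared.

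The genes whose profile was most like the mean log2 level of the 8 rps genes, by Pearson correlation over the 7 arrays among 13505 other single-gene probe sets, were AT1G33710 (0.98), AT2G12900 (0.98), AT3G28550 (0.97), AT2G32050 (0.97) and AT5G48650 (0.97). All 5 are nuclear genes. The first 4 were dim in wild type, with mean intensities of 0.726 to 7.26. Of these, AT1G33710, AT2G12900 and AT2G32050 were dim in myb5 too, at 1.49 to 12.0 over the myb5 arrays. These genes lay below the added constant in every array. AT3G28550 lay at 19.4 to 96.6 in the myb5 arrays. AT5G48650 had 236 ± 29.1 in wild type and 318 ± 51.9 in myb5 (SD, n = 4 and n = 3). The likeness is a description over few arrays that share their scaling.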

How the data were processed

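Seeds of 4 wild-type and 3 myb5 samples were measured on 1 array each. The authors deposited 1 linear intensity for each of 22810 probe sets and array. No label names the software behind them. With 2% of the values trimmed at each end, every array had a mean of 150.01, so arrays had been scaled to 1 target, which cannot remove intensity-dependent differences. No detection call was used, and the number of arrays limits precision.

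After 64 control probe sets were left out, log2(intensity + 16) was quantile normalized and compared by limma 3.58.1 (R 4.3.3) with genotype as the only term, with Benjamini-Hochberg adjustment over 22746 probe sets. Names came from the array's annotation and a gene table (TAIR10.1 names and gene order only): 13513 probe sets named 1 gene. That table gives no strand, so neighbours were taken on either strand, not on the same strand as the rule for named genes stated. The rule names every member, its neighbours, the 5 genes most like the members and, in other lists, the extremes. Other genes of the rps19 to rpoA stretch and other list members were named after their values were seen. The members, lists and the sets of arrays were chosen with earlier results of these data known. Genes of the family with no value above are not reported here. The fit was tested on simulated data. As a check of pairing, array deviations from their genotype's mean were correlated over probe sets within replicate numbers 1, 2 and 3, giving 0.63, -0.30 and 0.55. Alternatives were other scalings, constants and filters, a replicate block, other variance settings, terms and subsets for the array sets, and leaving out each array.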

Additional observations from a re-analysis of the deposited data

How the results depend on the processing

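The median log2 difference of the rps genes stayed above 0 in all 19 alternatives, from 0.28 to 0.66. It was 0.61 with array weights and 0.28 in the smaller set of arrays alone, which was added after seeing the data and holds 1 myb5 array. Leaving out each array gave 0.37 to 0.66, highest without myb5 replicate 1. The count of members without overlap was 8 in the larger set alone (15.5% of all probe sets, with fewer arrays to overlap), 3 with array medians set equal (1.59%) and 4 to 6 when each array was left out (3.28% to 9.06%, with 6 members and 9.06% without myb5 replicate 1). The signs of rps14 and rps18 turned in the smaller set alone, to -0.12 and -0.078; the cause was not tested. No member passed the threshold in the 18 alternatives in which calls were counted. Over the whole table the count of 1 call became 0 with the replicate block and 0 in the larger set alone, both with fewer residual degrees of freedom, and 1 to 2 when each array was left out (2 without myb5 replicate 1). Same-numbered arrays shared a set for numbers 1 and 3 but not for 2, which does not show a pairing, and with the replicate block the median difference of the rps genes was 0.48 and 0 members passed. With the dimmest 50% left out, rps14 was not tested. No detection limit is known for the dim rps14 and rps16 probe sets.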
